A study of Mus musculus with 2 samples.

Results

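The chaperone genes of mouse were followed in regenerating liver through every array probe set whose single annotated symbol marks a heat shock protein (Hspa, Hspb, Hspd, Hspe, Hsph, Hsp90), a J-domain protein (Dnaj), a subunit of the cytosolic chaperonin (Cct), a BAG protein (Bag) or a heat shock factor (Hsf). This name rule took 215 of 34945 probe sets with 1 symbol and 91 of 18193 genes. The rule reads symbols and not signals, but it was chosen with earlier results of these data known. The regenerating group was whole liver of BALB/c nude mice 3 days after an operation that removed 70% of the organ (day 3), and the control group was whole liver of the same strain at day 0, labelled as control. The day 0 label also places the sample after partial hepatectomy, and the 70% removal is stated for both samples, so the control is not described as unoperated. Nude mice are athymic and carry few mature T cells, a trait that both groups share. There was 1 array per day, and whether an array held RNA of 1 mouse or of a pool is not stated in the labels. No value below therefore has a spread between animals, the days could not be tested against each other, and the operation, the time and the animal cannot be told apart.

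Chaperones bind unfolded stretches of other proteins and release them so that they can fold, assemble or pass through a membrane. HSP70 proteins do this in an ATP cycle that J-proteins start and nucleotide exchange factors (HSP110, BAG proteins, HSPBP1) end, HSP90 acts later on near-native clients, and the chaperonins (CCT in the cytosol, HSP60 with its lid HSP10 in mitochondria) fold proteins inside a closed chamber. Small heat shock proteins hold aggregating proteins without ATP. Hepatocytes carry large folding loads in 3 places: the cytosol, the mitochondria, which import nearly all of their proteins unfolded, and the endoplasmic reticulum (ER), where plasma proteins are folded for secretion. Heat shock factors raise the cytosolic set through heat shock elements in promoters, and the unfolded protein response raises the ER set through ER stress elements.

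The promoters below are shown because they carry, or in named cases lack, the elements through which these sets are known to be controlled. They are RefSeq windows from 250 bases before to 50 bases after the annotated start (build GRCm38.p6), written 5′ to 3′ on the gene's strand: Hspe1 at chr1:55087898-55088197 (+ strand), Hsph1 at chr5:149636266-149636565 (-), Hspa1a at chr17:34972107-34972406 (-), Hspa1b at chr17:34959189-34959488 (-), Hspa5 at chr2:34771840-34772139 (+), Hsp90b1 at chr10:86705395-86705694 (-), Dnajc10 at chr2:80315216-80315515 (+) and Dnajc9 at chr14:20388861-20389160 (-). In the first 7 windows capitals mark heat shock elements (TTCNNGAA or GAANNTTC, and runs of 3 such units, in which TTC and GAA alternate with 2 bases between them and which contain the shorter form) and ER stress elements (CCAAT and CCACG with 9 bases between them). In the Dnajc9 window capitals mark GCGGGAA, a core of E2F elements that was searched for after the sequence had been read. All motifs were searched on both strands.
Hspe1: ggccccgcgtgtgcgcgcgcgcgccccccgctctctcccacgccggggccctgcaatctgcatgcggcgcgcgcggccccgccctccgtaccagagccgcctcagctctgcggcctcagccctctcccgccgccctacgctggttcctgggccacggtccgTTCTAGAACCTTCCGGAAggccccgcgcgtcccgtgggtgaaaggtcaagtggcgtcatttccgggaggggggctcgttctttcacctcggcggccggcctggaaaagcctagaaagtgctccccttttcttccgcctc
Hsph1: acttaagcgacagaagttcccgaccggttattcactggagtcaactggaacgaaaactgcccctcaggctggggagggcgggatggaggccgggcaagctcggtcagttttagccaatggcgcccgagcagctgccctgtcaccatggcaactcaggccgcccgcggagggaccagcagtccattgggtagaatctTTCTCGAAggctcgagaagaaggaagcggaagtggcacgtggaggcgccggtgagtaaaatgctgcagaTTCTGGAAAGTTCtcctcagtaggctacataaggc
Hspa1a: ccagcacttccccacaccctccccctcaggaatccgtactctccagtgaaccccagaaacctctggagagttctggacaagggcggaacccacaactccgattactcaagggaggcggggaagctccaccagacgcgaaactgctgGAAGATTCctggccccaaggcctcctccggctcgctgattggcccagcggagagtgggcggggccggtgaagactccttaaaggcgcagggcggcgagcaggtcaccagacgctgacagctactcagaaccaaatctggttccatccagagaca
Hspa1b: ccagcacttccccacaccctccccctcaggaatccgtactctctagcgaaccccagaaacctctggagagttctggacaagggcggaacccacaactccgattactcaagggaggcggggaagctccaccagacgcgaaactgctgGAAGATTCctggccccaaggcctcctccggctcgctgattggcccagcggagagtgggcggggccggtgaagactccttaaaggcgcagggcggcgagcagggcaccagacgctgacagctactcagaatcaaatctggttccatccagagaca
Hspa5: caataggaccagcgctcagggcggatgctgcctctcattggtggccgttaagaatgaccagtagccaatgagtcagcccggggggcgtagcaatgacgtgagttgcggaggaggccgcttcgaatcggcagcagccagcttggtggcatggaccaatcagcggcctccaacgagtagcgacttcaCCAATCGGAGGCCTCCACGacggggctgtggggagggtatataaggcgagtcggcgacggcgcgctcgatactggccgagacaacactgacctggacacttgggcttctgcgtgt
Hsp90b1: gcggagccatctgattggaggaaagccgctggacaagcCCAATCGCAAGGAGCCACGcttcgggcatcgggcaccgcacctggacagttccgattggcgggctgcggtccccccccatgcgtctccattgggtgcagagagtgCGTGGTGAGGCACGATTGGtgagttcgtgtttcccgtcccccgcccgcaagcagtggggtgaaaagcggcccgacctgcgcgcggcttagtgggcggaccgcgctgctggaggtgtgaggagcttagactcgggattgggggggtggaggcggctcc
Dnajc10: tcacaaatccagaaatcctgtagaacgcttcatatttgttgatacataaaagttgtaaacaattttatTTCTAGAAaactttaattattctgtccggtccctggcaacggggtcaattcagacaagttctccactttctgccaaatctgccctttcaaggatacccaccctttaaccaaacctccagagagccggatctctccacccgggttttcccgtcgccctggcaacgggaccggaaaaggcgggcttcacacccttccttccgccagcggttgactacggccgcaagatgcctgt
Dnajc9: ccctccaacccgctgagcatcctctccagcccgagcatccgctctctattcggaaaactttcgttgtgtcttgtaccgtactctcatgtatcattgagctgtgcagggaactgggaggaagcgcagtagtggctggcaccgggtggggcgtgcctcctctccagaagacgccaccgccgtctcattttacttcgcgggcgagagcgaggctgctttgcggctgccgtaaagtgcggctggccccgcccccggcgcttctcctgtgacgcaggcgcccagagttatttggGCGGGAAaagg

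The Hspe1 window and the Hspd1 window at chr1:55087883-55088182 share 285 bases on opposite strands, so the genes of HSP10 and HSP60 stand head to head over the same run of heat shock elements. The Hspa1a and Hspa1b windows differ at 4 of 300 bases. Of 75 member genes with a promoter entry, 4 held a run of 3 units (Dnajb6, Hspd1, Hspe1 and Hsph1), or 5.33%, against 0.662% of all 27025 genes with an entry. The shorter heat shock element lay in 22 of the 75 (29.3%), against 17.0% of all genes. By compartment it lay in 18 of 50 cytosolic, 2 of 4 mitochondrial and 1 of 11 ER genes. The ER stress element lay in 3 of the 75, namely Hspa5, Hsp90b1 and Dnajc3, all of the ER, against 0.137% of all genes. GCGGGAA lay in 7 of the 75 (9.33%), against 5.29% of all genes, and CACGTG, the E-box, in 8 (10.7%), against 8.09%. A match describes letters in this window and is not a shown binding site, and an element outside the window was not searched for.

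Signals are probe set intensities on a linear scale. A signal under 68.3, the higher of the medians of the arrays, was set to that floor before the log2 ratio of day 3 over day 0 was taken, and a fold against a floored signal is written as at least that fold. The brightest probe set stands for a gene and is called its main probe set, and signals are compared only within a probe set. Of the 91 genes, the main probe set of 73 passed the floor on both arrays, of 4 at day 3 only (Dnaja4, Hspa1a, Hspb2 and Hspa12a), none at day 0 only and 14 on neither. Those 14 include genes known mainly from testis, muscle or brain (Hspa1l, Cct6b, Dnajb3, Dnajb7, Hspb3, Hspb7, Hspb9, Dnajc5b, Dnajc5g, Dnajc6), together with Hspa12b, Dnajc27, Cct8l1 and Hsf5. Hsp90ab1, Hsf1, Hsf3 and Dnajc19 lacked a probe set with a single symbol and were not used here.

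Of the 77 analysed chaperone genes, 6 had at least 2-fold higher signal at day 3 than at day 0, 2 had at least 2-fold lower signal and 69 lay under 2-fold. Over all 12634 genes analysed, 12.9% were at least 2-fold higher and 5.62% at least 2-fold lower, so 6 and 2 of 77 are no larger shares than those of the array as a whole. After scaling to the hybridisation spikes the split was 14 higher and 2 lower, with 19.6% of all genes higher and 3.10% lower. Counting the 73 genes above the floor on both arrays alone, 5 were higher and 2 lower, against 11.7% and 5.76% of all 10722 such genes. Of 161 chaperone probe sets above the floor on at least 1 array, 15 (9.32%) were higher and 6 (3.73%) lower, against 11.2% and 6.07% of 21676. The higher genes were Dnajc9, Dnaja4, Dnajb1, Dnajc10, Bag3 and Hsf2bp, and the lower ones Bag4 and Dnajc28. The median log2 ratio was 0.13 for the chaperone genes and 0.08 for all genes analysed. Single probe sets of 1 gene varied with an SD of 0.36 in log2 ratio among 39 chaperone genes (0.44 among 4380 genes of the array). This is the SD of the difference between 2 probe sets over the square root of 2, so the SD of the difference itself is larger. Most single-gene differences below are near the size of that spread, which covers probe sets of these arrays and not animals.

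**Figure D1:**
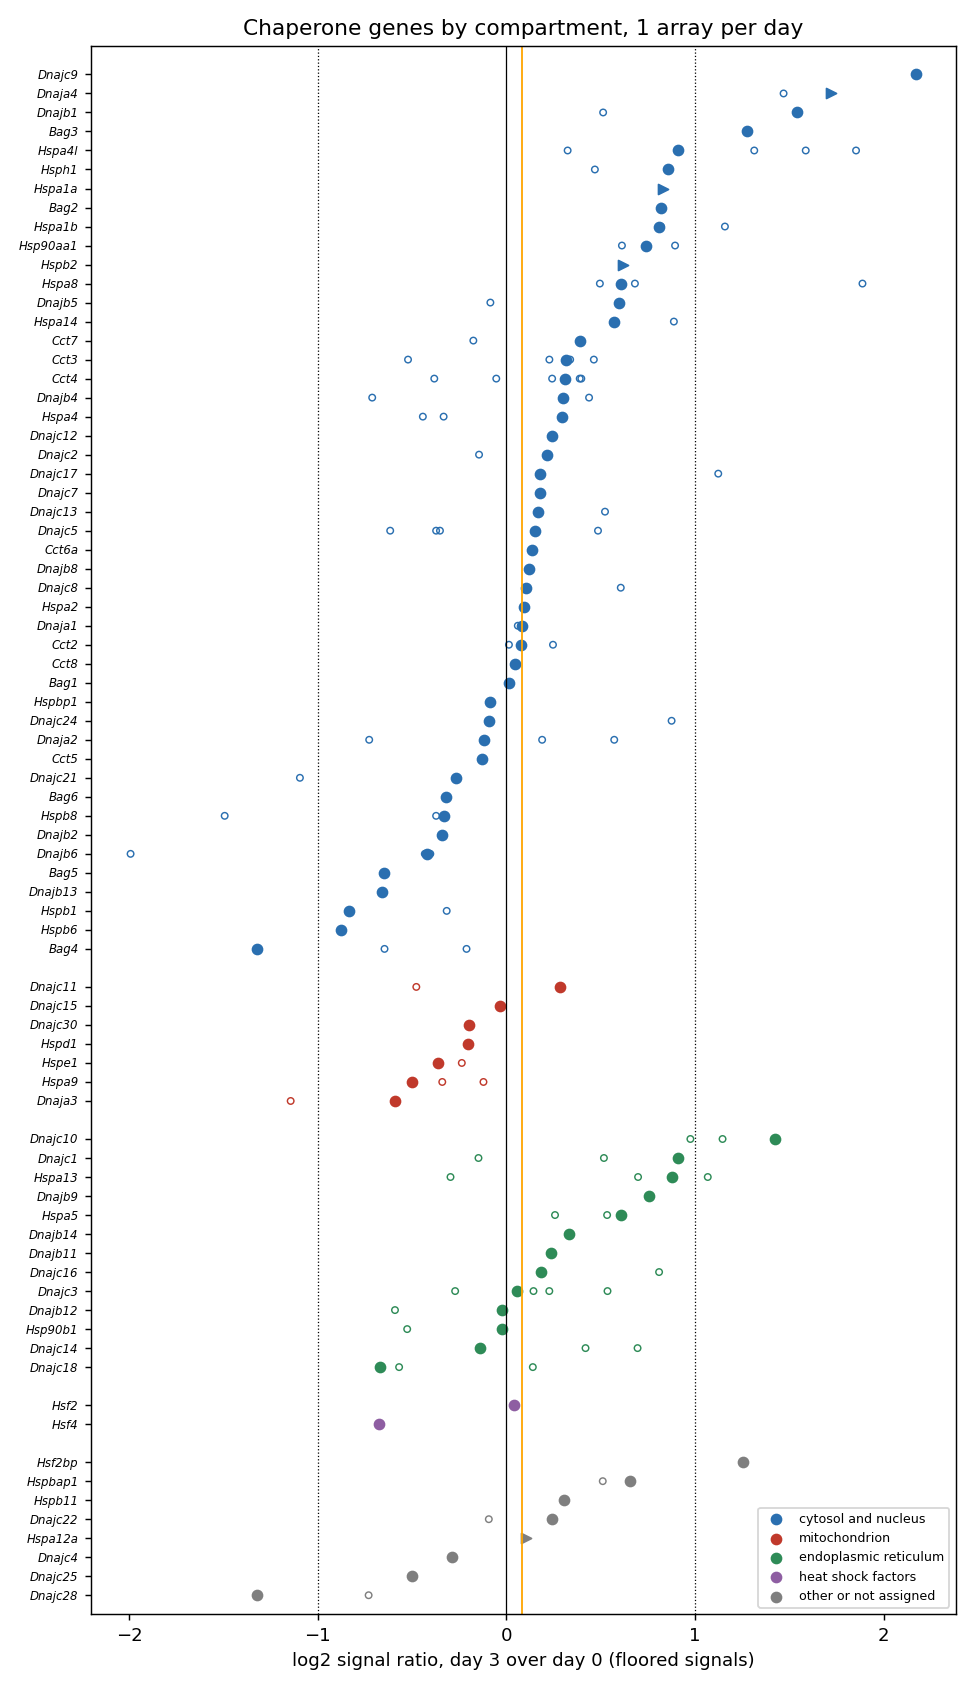
Log2 signal ratio of day 3 over day 0 for the 77 analysed chaperone genes, grouped by the compartment of the protein. Filled symbols are main probe sets (triangles, day 0 signal under the floor, so a lower bound), open circles are the gene's other probe sets above the floor on at least 1 array, dotted lines mark 2-fold and the orange line the median of all genes (0.08). Of the 7 mitochondrial genes, 6 lie left of 0, while 9 of 13 ER genes and 33 of 47 cytosolic genes lie right of it. Of all genes analysed, 55.1% had a ratio above 0.

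Mitochondrial chaperone genes lay lower than those of the ER and the cytosol, which lay close together. Mitochondrial chaperone genes had a median log2 ratio of −0.20, with 6 of 7 genes below 0 and none past 2-fold. ER chaperone genes had a median of 0.23, with 9 of 13 above 0, 1 at least 2-fold higher and none at least 2-fold lower. Cytosolic and nuclear genes had a median of 0.17, with 33 of 47 above 0, 4 at least 2-fold higher and 1 at least 2-fold lower. Of all genes analysed, 55.1% lay above 0. Counted over single probe sets above the floor on both arrays, 1 of 12 mitochondrial ones was above 0, against 23 of 32 in the ER, 58 of 93 in the cytosol and 53.7% of all 17693 such probe sets. The probe sets of 1 gene share their target, so these counts are not counts of independent measurements. The order ER, cytosol, mitochondrion of the medians was the same in all 10 alternative settings. These changed the scaling, the floor or the choice of probe set. All of them reuse the same arrays, and median centring and spike scaling shift ratios above the floor alike, so they could hardly change the order. The ER and cytosolic medians were close, at 0.20 and 0.17 after loess, so little can be read from their order. The mitochondrial median was below that of all genes in each setting. With spike scaling, where the median of all genes moved to 0.36, the mitochondrial median was 0.09, so its sign depends on the scaling and its place below the other compartments did not in these settings.

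**Figure D2:**
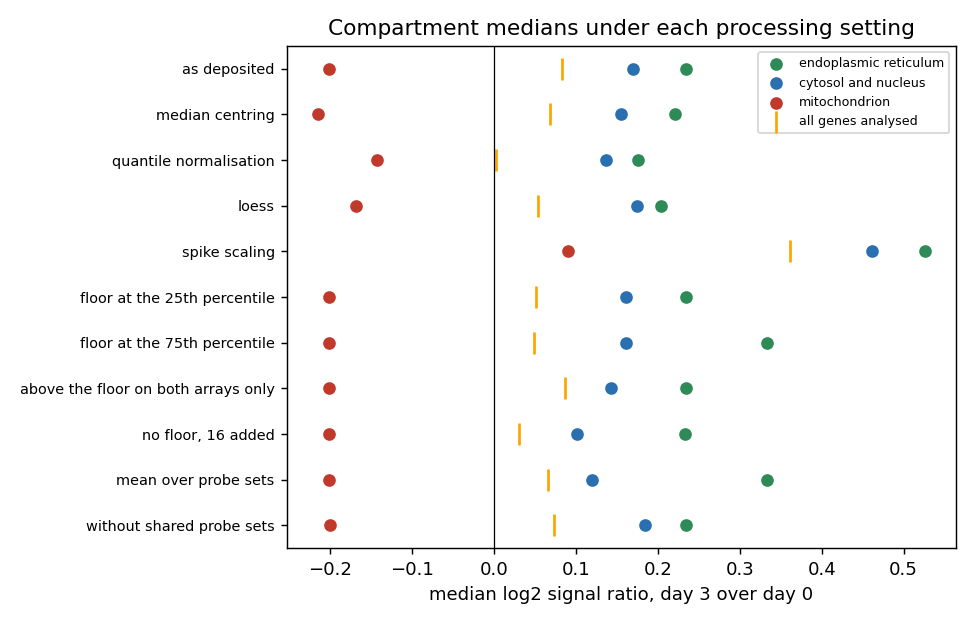
Median log2 signal ratio of day 3 over day 0 for ER (green), cytosolic and nuclear (blue) and mitochondrial (red) chaperone genes and for all genes analysed (orange bars), as deposited and in 10 alternative settings. The red points lie left of the orange bars and the green points farthest right in every row, while spike scaling shifts all of them to the right.

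Among cytosolic HSP70 genes all 5 analysed lay above 0, with a median log2 ratio of 0.61 as deposited and 0.57 to 0.86 in the other scalings, in 2 of which (loess and quantile) 4 of 5 lay above 0. Hspa8, the constitutive HSC70, had signals of 28424.5 at day 3, against 18658 at day 0, on its main probe set (1.52-fold higher). Its other 3 probe sets were 1.41-fold, 1.60-fold and 3.70-fold higher, the last from signals of 1776 at day 3 and 480.3 at day 0. All 4 probe sets of Hspa8 were thus higher at day 3, by amounts that differed between probe sets. Hspa1b, the stress-inducible HSP70, had 490.0 at day 3 and 280.0 at day 0 (1.75-fold higher), and its other probe sets were 1.76-fold and 2.23-fold higher. Hspa1a, its near-identical neighbour, had 121.3 at day 3 and lay under the floor with 14.4 at day 0 (at least 1.78-fold higher). The 2 genes are near-identical copies, so which of them a probe reads is uncertain. The bound for Hspa1a depends on the floor: its log2 ratio was 0.83 as reported and 2.62 with a floor at the 25th percentile of the signals. Hspa14, a ribosome-associated HSP70, had 1381 and 930.3 (1.48-fold higher), with at least 1.85-fold on a probe set under the floor at day 0, and Hspa2, known mainly from testis, 289.7 and 271.4 at day 3 and day 0.

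The 3 HSP110 genes, which encode exchange factors of HSP70, all lay above 0, with a median of 0.86 and of 0.70 to 1.15 in the other scalings. Hspa4l had 599.0 at day 3, against 318.4 at day 0 (1.88-fold higher), the value nearest to 2-fold among the genes that did not reach it. Its other 4 probe sets were 1.25-fold, 2.49-fold, 3.00-fold and 3.61-fold higher, so 3 of its 5 probe sets passed 2-fold while the main one did not. Hsph1, whose promoter above holds a heat shock element of 3 units, had 3425 and 1889 at day 3 and day 0 (1.81-fold higher) and 1.38-fold on another probe set. Hspa4 had 4919 at day 3 and 4014 at day 0 (log2 ratio 0.29), with other probe sets at −0.33 and −0.44, which disagree in sign. Hsp90aa1, the stress-inducible HSP90, had 11184 at day 3, against 6703 at day 0 (1.67-fold higher), and 1.53-fold and 1.86-fold on its other probe sets. All 3 probe sets of Hsp90aa1 above the floor lay between 0.61 and 0.89 on the log2 scale.

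Of 20 analysed cytosolic and nuclear J-protein genes, 3 passed 2-fold upwards (15%, against 12.9% of all genes) and 0 downwards (against 5.62%), with a median log2 ratio of 0.16. Dnajc9, which in human cells is a co-chaperone of histones H3 and H4, showed the largest ratio among the 73 chaperone genes that passed the floor on each array, with 2024 at day 3, against 449.3 at day 0, or 4.51-fold higher on its only probe set. It was the only one of those 73 past 4-fold, while genes under the floor at day 0 have lower bounds and cannot be ranked against it. With a floor at the 25th percentile of the signals the log2 ratio was 2.17 for Dnajc9 and 2.62 for Hspa1a. The Dnajc9 promoter window holds the E2F-type core printed above. The same core lay in windows of Dnajb6 (log2 ratio −0.42), Dnaja1 (0.08), Dnajb11 (0.23), Hspa14 (0.57) and Hsf2bp (1.25), and of Hsf5, which was under the floor. A link between the core and the ratios was not tested. Dnajb1, the classic HSP40 that works with HSC70, had 2733 at day 3 and 938.8 at day 0 (2.91-fold higher), but 1217 and 853.0 (1.43-fold) on another probe set. Averaged over both probe sets its log2 ratio was 1.03 instead of 1.54. Dnaja4, a class A J-protein, had 224.8 at day 3 and 67.7 at day 0, just under the floor (at least 3.29-fold higher), and another probe set gave at least 2.77-fold, while the third was under the floor on both arrays. Other class A genes stood near 0: Dnaja1 had 10022 at day 3, against 9477 at day 0, with all 3 probe sets between 0.06 and 0.08 on the log2 scale, and Dnaja2 had 8032 and 8715, with other probe sets from −0.73 to 0.57 (the last a lower bound).

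Most other cytosolic J-protein genes lay close to 0. Dnajc2, the ribosome-associated partner of Hspa14, had a log2 ratio of 0.22, with another probe set at −0.14. Dnajc12, a co-chaperone of phenylalanine hydroxylase in human liver, had 0.24, Dnajc7 0.18, the endosomal Dnajc13 0.17 (at least 1.44-fold higher on a probe set under the floor at day 0) and Dnajc8, a splicing-associated protein gene, 0.10, with another probe set of Dnajc8 at 0.61. Dnajb4 had 0.30 and 0.44, and was at least 1.64-fold lower on a probe set under the floor at day 3. Dnajc17 had 0.18, with at least 2.18-fold on a probe set under the floor at day 0, Dnajc24, which acts in diphthamide synthesis, −0.09, with at least 1.83-fold higher signal on a probe set under the floor at day 0, Dnajb8 0.12 and Dnajb5 0.60, with another probe set of Dnajb5 at −0.08. Dnajc5, the cysteine string protein gene, was at 0.15 on its main probe set and between −0.62 and 0.49 on the other 4, so its direction is not settled. On the other side stood Dnajb6, a suppressor of protein aggregation, with 4168 at day 3 and 5571 at day 0 (log2 ratio −0.42). All 4 probe sets of Dnajb6 lay below 0, 1 of them at −1.99. Dnajc21, a ribosome biogenesis factor gene, had −0.26, with another probe set at −1.09, Dnajb2 −0.34 and the sperm axoneme gene Dnajb13 −0.66, with signals of 70.2 and 110.7 that were near the floor.

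**Figure D3:**
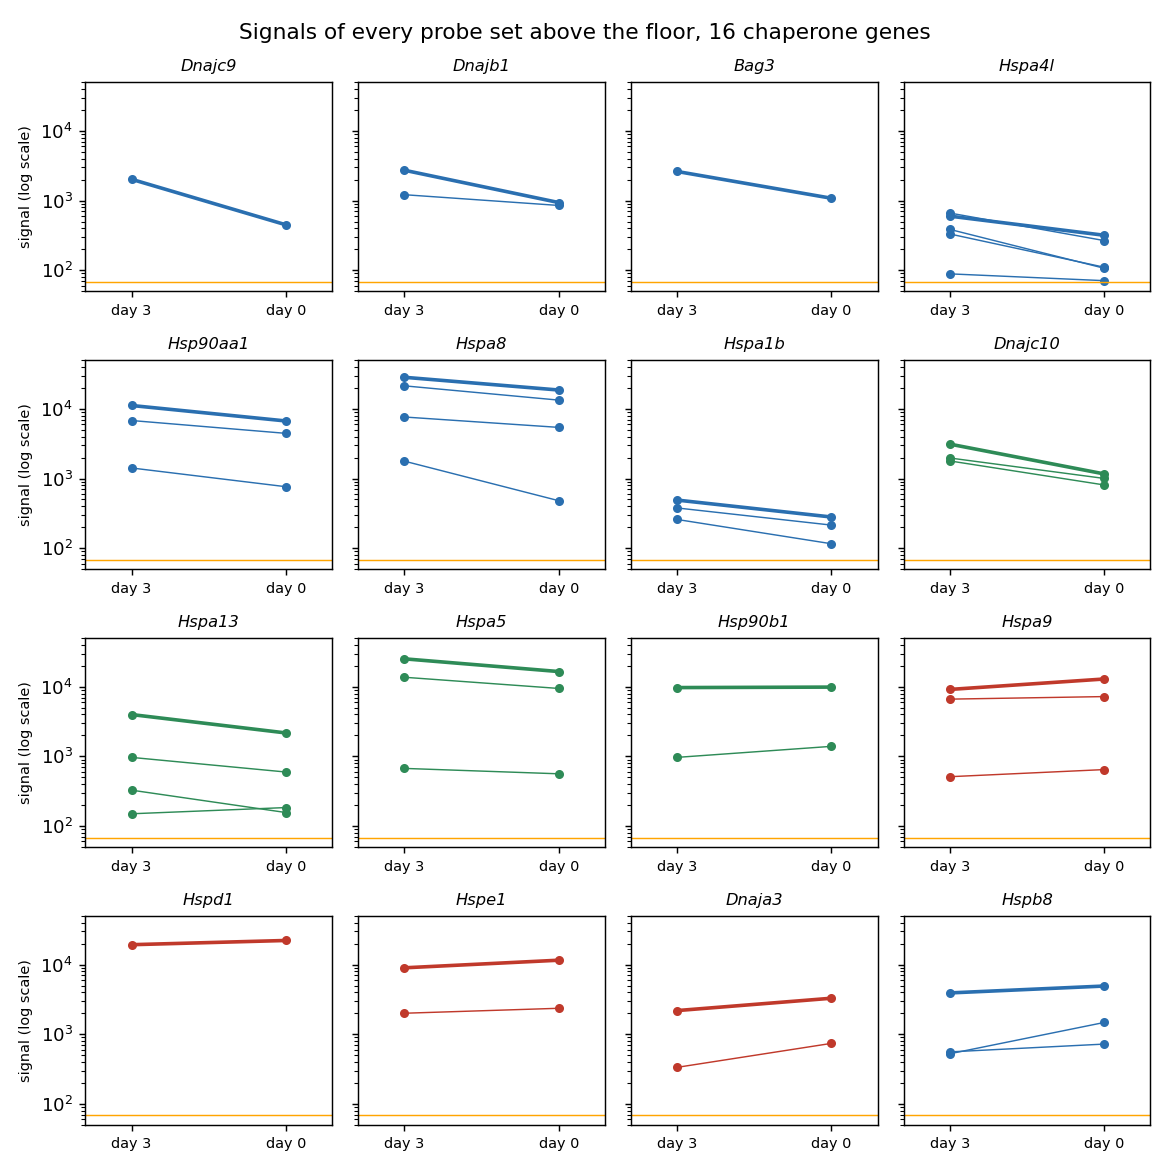
Signals (log axis) of every probe set above the floor for 16 chaperone genes, day 3 at the left and day 0 at the right of each panel, with 1 line per probe set, the main one thick, and the floor of 68.3 in orange. Blue marks cytosolic, green ER and red mitochondrial proteins; lines of Hspa8, Hsp90aa1, Hspa4l and Dnajc10 all run higher at day 3, and all lines of Hspa9, Hspd1, Hspe1 and Dnaja3 run lower at day 3.

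The BAG family and Hspbp1, which also release nucleotide or cargo from HSP70, lay on both sides of 0, with a median log2 ratio of −0.08 for the 7 genes, and of 0.21 with spike scaling. Bag3, which directs HSP70 clients to autophagy, had 2623 at day 3, against 1082 at day 0 (2.42-fold higher, 1 probe set). Bag2, an inhibitor of client ubiquitination, had 347.4 and 196.9 (1.76-fold higher). Bag4 had 492.4 at day 3 and 1229 at day 0 (2.495-fold lower), and its other probe sets were 1.56-fold and 1.16-fold lower. Its mean over the 3 probe sets was −0.73, which is under 2-fold. Bag5 was 1.57-fold lower, Bag6, which delivers tail-anchored membrane proteins, 1.25-fold lower, and Bag1 and Hspbp1 had log2 ratios of 0.02 and −0.08.

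Bag3 protein works in a complex with the small heat shock protein Hspb8, and the ratios of the 2 transcripts lay on opposite sides of 0. Hspb8 had 3924 at day 3, against 4927 at day 0 (log2 ratio −0.33), and its other probe sets were at −0.37 and −1.49. Hspb1, the HSP27 gene, had 756.5 and 1347 (1.78-fold lower), with another probe set 1.25-fold lower. Hspb6, the HSP20 gene, had 319.7 at day 3 and 588.0 at day 0 (1.84-fold lower), the lowest value short of 2-fold, and it passed 2-fold after quantile normalisation and loess. Hspb2, a muscle gene, was at 104.9 at day 3 and under the floor, at 12.6, at day 0 (at least 1.54-fold higher). The 4 analysed small heat shock genes had a median of −0.58, and of −0.59 to −0.29 in the other scalings. The 3 members above the floor on both arrays stood lower at day 3. On main probe sets as deposited, the cytosolic HSP70 and HSP110 genes and Hsp90aa1, the only cytosolic HSP90 gene analysed, stood higher. Hspa4 averaged −0.16 over its probe sets, and after loess and quantile scaling 4 of 5 cytosolic HSP70 genes lay above 0.

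The subunits of CCT, the ring that folds actin and tubulin, kept close together. The 7 genes analysed ranged from −0.13 to 0.39 in log2 ratio, with a median of 0.13, and none reached 1.5-fold. Cct7 had 4829 at day 3, against 3684 at day 0 (log2 ratio 0.39, another probe set −0.18), Cct3 7022 and 5635 (0.32, other probe sets −0.52 to 0.46) and Cct4 6786 and 5467 (0.31, others −0.38 to 0.40). Cct6a had 6190.2 at day 3 and 5642 at day 0, Cct2 8799 and 8327, and Cct8 5698 and 5520.4. Cct5 was the only one below 0, with 6070 at day 3 and 6638 at day 0. These differences are near or under the spread between probe sets of 1 gene. Tcp1, the remaining subunit of the ring, which the name rule does not take, had a log2 ratio of 0.10.

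In mitochondria the matrix HSP70 Hspa9, also called mortalin, had 9152 at day 3, against 12925 at day 0 (1.41-fold lower), with its other probe sets 1.09-fold and 1.27-fold lower. Hspd1, the HSP60 gene, had 19334 at day 3 and 22228 at day 0 (1.15-fold lower, 1 probe set above the floor), and Hspe1, the HSP10 gene on the other side of the shared promoter, 9001 and 11573 (1.29-fold lower), with 1.18-fold lower on another probe set. Both heat shock element carriers among the mitochondrial genes stood slightly lower at day 3. Of the cytosolic genes that also carry a run of 3 units, Hsph1 stood higher and Dnajb6 lower (log2 ratio −0.42). The direction of Hspd1 and Hspe1 depends on the scaling. After loess, quantile and spike scaling 1 of the 2 lay above 0, with medians of −0.05, −0.05 and 0.01. Dnaja3, the J-protein partner of mortalin, had 2188 at day 3, against 3292 at day 0 (log2 ratio −0.59), and 2.21-fold lower on another probe set. The import motor gene Dnajc15 had 2029 and 2079, Dnajc30 1889 and 2168, and the cristae protein gene Dnajc11 1103 at day 3 and 906.6 at day 0 (log2 ratio 0.28), with another probe set at −0.48.

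In the ER, Hspa5, the HSP70 named BiP that holds nascent secretory proteins, had 25179 at day 3, against 16537 at day 0 (1.52-fold higher), with its other probe sets 1.45-fold and 1.20-fold higher. Hsp90b1, the ER HSP90 named GRP94, had 9731 and 9887 (log2 ratio −0.02), with another probe set at −0.53. Both promoters printed above carry ER stress elements, 1 in Hspa5 and 2 in Hsp90b1, while their log2 ratios were 0.61 and −0.02. Dnajc3, the third gene with that element, an ER J-protein known as P58IPK, had 4436 at day 3 and 4270 at day 0, with its other 4 probe sets from −0.27 to 0.54. Dnajc10, the disulfide reductase ERdj5 that prepares misfolded proteins for degradation, was the ER gene with the highest ratio: 3118 at day 3, against 1164 at day 0 (2.68-fold higher). Its other probe sets were 2.21-fold and 1.97-fold higher, so all 3 agree in sign, and the one not marked as shared between transcripts lies just short of 2-fold. Its window holds 1 short heat shock element and no ER stress element of the form searched.

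Further ER genes stood higher at day 3 without reaching 2-fold. Dnajc1 had 1166 at day 3 and 621.9 at day 0 (1.88-fold higher), with other probe sets 1.43-fold higher and 1.11-fold lower. Hspa13, a microsomal relative of HSP70, had 3987 and 2171 (1.84-fold higher), with other probe sets at 0.70, 1.07 and −0.30 on the log2 scale. Dnajb9, the BiP partner ERdj4, had 5246 at day 3, against 3112 at day 0 (1.69-fold higher), and Dnajb11, the partner ERdj3, 2941 and 2499 (log2 ratio 0.23). The ER membrane J-protein genes had log2 ratios of 0.33 (Dnajb14), 0.18 (Dnajc16, another probe set 0.81), −0.02 (Dnajb12, another −0.59), −0.14 (Dnajc14, others 0.42 and 0.70) and −0.67 (Dnajc18, another 0.14, and at least 1.48-fold lower on a probe set under the floor at day 3). Dnajc14 and Dnajc18 have probe sets on both sides of 0.

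Of the heat shock factor genes, Hsf2 had 141.5 at day 3 and 137.8 at day 0, and Hsf4 129.4 and 206.4 (1.60-fold lower), both near the floor. Among genes with no compartment assigned, Hsf2bp, which encodes a partner of HSF2 and acts in meiotic recombination, had 171.8 at day 3, against 72.0 at day 0 (2.38-fold higher), and its other probe set lay under the floor on both arrays. Dnajc28 had 237.5 and 594.3 (2.50-fold lower), and its other probe set had 25.7, under the floor, at day 3 and 113.2 at day 0. With a floor at the 75th percentile of the signals Hsf2bp and Dnaja4 were no longer analysed and Dnajc28 had a log2 ratio of −0.49. Dnajc22 had 5196 and 4393, Hspbap1 148.6 and 94.4, Hspb11, an intraflagellar transport gene despite its name, 351.7 and 284.2, Dnajc4 526.8 and 643.3 and Dnajc25 470.0 and 665.4 at day 3 and day 0. Hspa12a reached 73.3 at day 3 and had 17.5, under the floor, at day 0 (at least 1.07-fold higher).

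**Figure D4:**
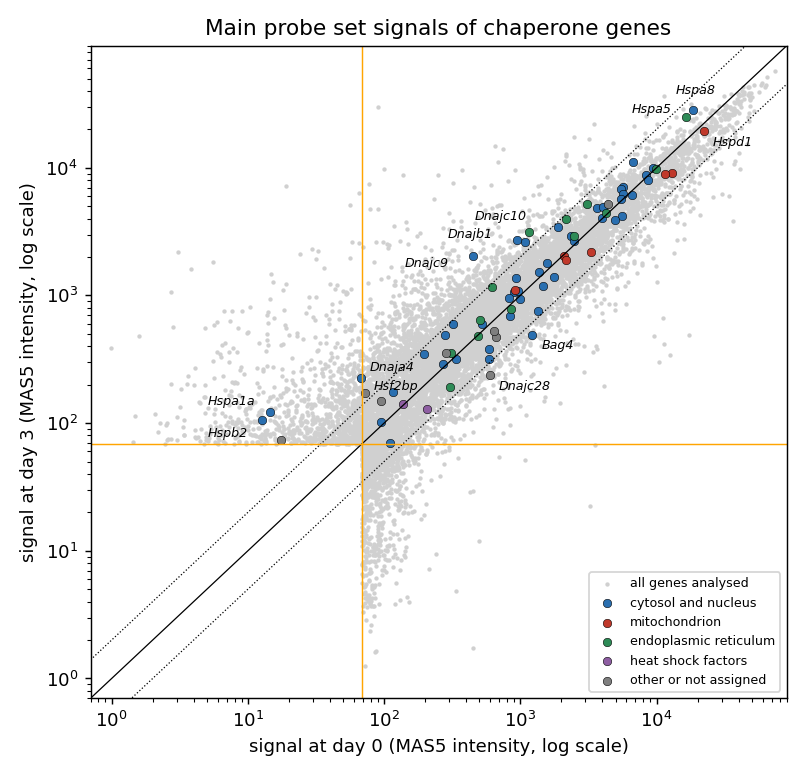
Signal at day 3 (vertical, log axis) against signal at day 0 (horizontal, log axis) on the main probe set of each gene: grey, all 12634 genes analysed; coloured, the 77 chaperone genes by compartment. The solid line marks equal signals, the dotted lines 2-fold and the orange lines the floor of 68.3; Dnajc9 lies farthest above the equal-signal line among chaperone genes above the floor on both arrays, and Hspa1a, Hspb2 and Hspa12a lie left of the floor at day 0.

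Partners of these chaperones that the name rule does not take were examined in lists of 72 genes, 68 of which were analysed. Of 26 analysed genes of ER folding and quality control, 4 passed 2-fold upwards and 0 downwards, against 12.9% and 5.62% of all genes, with a median log2 ratio of 0.26. A share of 4 in 26 is near that of all genes. Serpinh1, the collagen chaperone HSP47, had 1926 at day 3, against 294.9 at day 0 (6.53-fold higher, another probe set 2.41 on the log2 scale), Creld2 3457 and 1540 (2.25-fold), Uggt1, the glucosyltransferase that tags unfolded glycoproteins, 2403 and 1167 (2.06-fold, another probe set 0.51 on the log2 scale), and Manf, a BiP cofactor, 12617 and 6280 (2.01-fold). Of the lectins and disulfide isomerases, Calr (log2 ratio −0.08), Canx (−0.03, other probe sets −0.36 and 0.69), P4hb (0.04) and Pdia3 (0.04) lay near 0. Pdia5 was at 0.16, Pdia4 at 0.36, Txndc5 at 0.57 (another probe set 0.13) and Pdia6 at 0.89 (another 0.39). Of 16 mitochondrial folding and protease genes none reached 2-fold, 6 lay above 0 (against 55.1% of all genes), and the median was −0.19 (0.11 with spike scaling). Trap1, the mitochondrial HSP90, had 4374 at day 3 and 7131 at day 0 (log2 ratio −0.71, another probe set −0.10), Clpp −0.97 and the exchange factor gene Grpel1 −0.37. The highest of that list were Tomm20 at 0.46 (other probe sets −0.33 to 0.76) and Clpx at 0.42 (another probe set 0.49). Of 16 HSP90 and HSP70 co-chaperone genes none reached 2-fold (median 0.12), and of 10 prefoldin and CCT partner genes only Vbp1, a prefoldin subunit, did, with 2720 at day 3 and 1139 at day 0 (2.39-fold higher, median of the list 0.16). The medians of the partner lists had the same order as the chaperones of their compartments, with the ER highest and the mitochondria lowest. These lists were read on the same arrays and were chosen with earlier results of these data known. Their order is therefore a description and not independent support.

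Whole liver holds several cell types, and in such samples fewer cells of a type and less RNA per cell cannot be told apart. All 7 hepatocyte markers with a probe set were above the floor on both arrays and under 2-fold (median −0.35, summed signal 199295 at day 3 and 267160 at day 0). Of 7 macrophage markers 5 were at least 2-fold higher at day 3 (summed signal 20422.5 at day 3 and 7195 at day 0), as were 5 of 7 stellate cell and fibroblast markers (22964 and 5394), among them Col1a1 (at least 16.6-fold) and Col3a1 (10.6-fold), 3 of 5 cholangiocyte markers (1112 and 324.6) and 2 of 5 neutrophil markers (1241 and 275.6). None of 7 sinusoidal endothelium markers reached 2-fold (5933 and 7838), 1 of 3 red cell precursor markers was lower (2870 and 9009), and lymphocyte (141.0 and 269.1), muscle (250.6 and 205.1) and germ cell markers (494.5 and 517.5) lay mostly under the floor, with Cd3d, Cd3e and Cd79a under it on both arrays. The part of these shifts in the chaperone values was not tested. The poly-A spikes, added before labelling, had a median log2 ratio of −1.20 on their 5′ probe sets (−1.63 to −0.25) and −0.12 on their 3′ probe sets, so the arrays differed in 3′ to 5′ balance. The part of that balance in the disagreement between probe sets of 1 chaperone gene was not tested.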

How the data were processed

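Total RNA from whole liver was extracted with Trizol, and biotin-labelled cRNA from 5 µg of it was hybridised to an Affymetrix mouse array, per the labels' protocols. Each deposited value is the linear intensity of 1 probe set, computed by the authors with GCOS and MAS5, per the submitters' processing notes. Their versions and scaling target: not given in the sources used here. After trimming 2% at each end, both arrays had a mean of 500.004. MAS5 corrects each probe by its mismatch partner, which makes low signals noisy, and the number of arrays limits the precision.

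The array's 45101 probe sets were named through its supplied annotation: 34945 had 1 symbol, 932 several and 9160 no entry, besides 64 controls. All 215 member probe sets matched the RefSeq table of GRCm38.p6 by Entrez ID, which changed 0 symbols. Signals were used as deposited, floored at 68.3, log2-transformed and reduced to 1 probe set per gene (the brightest by mean log2 signal), leaving out genes under the floor on both arrays. A 2-fold difference counts as higher or lower. With 1 array per day there was no test, standard error or p-value. Probe set spread is the SD, over genes, of the log2 ratio of the main probe set minus that of the next brightest, over the square root of 2.

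Compartments, partner lists and marker lists (hepatocyte, macrophage, endothelium, stellate, cholangiocyte, lymphocyte, neutrophil, red cell, muscle, germ cell) came from textbook knowledge. Genes named were all past 2-fold, a fixed set of well-known chaperones, and the remaining members. Partner genes under 2-fold (Tcp1, Calr, Canx, P4hb, Pdia3, Pdia4, Pdia5, Pdia6, Txndc5, Trap1, Clpp, Clpx, Grpel1, Tomm20) were chosen after their values were seen. The members and lists were chosen with earlier results of these data known. Alternatives covered scaling (median centring, quantile, loess with fraction 0.3, hybridisation spikes), the floor (25th and 75th percentile, both arrays above it, none with 16 added), the choice of probe set, and the threshold (1.5-fold, 4-fold). The ratios and calls were also tested on simulated data. Python 3.11.15, numpy 2.4.6, pandas 2.3.3 and statsmodels 0.14.6 were used.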

Additional observations from a re-analysis of the deposited data

How the results depend on the processing

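No paired analysis was possible because there was 1 array per day, and for the same reason no array could be left out. No called gene changed direction in any alternative. The count of chaperone genes at least 2-fold higher was 6 of 77 as reported and 14 of 77 after spike scaling. It was 11 of 84 when the floor was the 25th percentile and 10 of 91 with no floor and 16 added. The other 7 settings at 2-fold gave 4 to 8. The lowest count was 4 of 60 with a floor at the 75th percentile, against 7.47% of all genes. The highest was 8 of 63 without shared probe sets, against 12.5%. Of all genes, 19.6% were higher after spike scaling, 14.7% with the lower floor and 12.8% with no floor. At 1.5-fold, 20 of 77 chaperone genes were higher, against 24.0% of all genes. At 4-fold it was 1 of 77, against 3.27%. The count of lower genes, 2 as reported, was 1 when the floor was the 75th percentile and 1 with the mean over probe sets, and 2 or 3 in the other 8. Of all genes, 5.28% were lower with the 75th percentile floor and 5.18% with the mean. In the other 8 settings the share of all genes ran from 3.10% to 11.2%. The first was spike scaling, with 2 of 77 chaperone genes lower, and the last the 25th percentile floor, with 2 of 84. At 1.5-fold 9 chaperone genes were lower, against 14.2% of all genes, and at 4-fold 0, against 0.76%. Spike scaling shifts every ratio between signals above the floor up by the same amount, and a lower floor admits dimmer genes. The cause of the other changes was not tested. Median log2 ratios ranged from 0.10 to 0.425 for all chaperone genes, 0.18 to 0.53 for ER, 0.10 to 0.46 for cytosolic and −0.22 to 0.09 for mitochondrial genes. Hspa8 had a log2 ratio of 1.89 without shared probe sets, where Dnajc10 had 0.975. Genes near the floor, such as Dnaja4, Hsf2bp and Hspa1a, are limited by signal over background.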
